A study of Homo sapiens with 20 samples.

Results

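Human pericytes that received the growth factor PDGF-BB together with extracellular NAMPT (eNAMPT) were compared with pericytes that received PDGF-BB alone, to describe what eNAMPT added in cells already given the growth factor. The comparison was between 10 of the 20 libraries of the series, chosen by their titles: 5 with both factors and 5 with PDGF-BB alone. All 20 libraries were fitted together, so the other 10 also shaped the estimate of the spread. The cells were the immortalized wild-type human pericyte line CL 05008-CLTH, grown in medium with fetal serum in every group. Recombinant human eNAMPT was used at 500 ng/mL and PDGF-BB at 20 ng/mL, each for 4 h, and the other 10 libraries were 5 untreated controls and 5 with eNAMPT alone. The labels call the 5 libraries of a group biological replicates of this 1 line. They do not say whether these came from separate cultures, so p-values measure only the spread between these libraries.

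Inside cells, NAMPT carries out the rate-limiting step of NAD salvage. The secreted protein, eNAMPT, acts as a cytokine, and TLR4 is among its proposed receptors. PDGF-BB binds the receptor tyrosine kinases PDGFRB and PDGFRA. PDGFRB is a defining receptor of pericytes, and its signal runs through ERK to immediate early genes and to genes that feed back on ERK. NF-kB is a family of transcription factors held inactive by inhibitors such as the product of NFKBIA. When the inhibitor is degraded, NF-kB turns on chemokines, cytokines, survival genes and the genes of its own inhibitors.

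Total RNA was sequenced and counted per gene. The libraries held 2894878 to 4011066 gene counts with both factors and 3260782 to 3759592 with PDGF-BB alone, and mitochondrial genes took 8.35% to 8.83% and 8.27% to 8.99% of them. Levels are given as CPM, counts scaled to the size of the library, which do not account for gene length. Changes are compared within a gene, while the marker sums below add genes of unlike length. Marker levels in this paragraph are scaled by library totals alone. Other levels use totals of the genes tested, with TMM scaling factors. The summed level of 18 pericyte markers was 1152 to 1256 CPM with both factors and 1172 to 1312 CPM with PDGF-BB. The largest parts of that sum were NT5E, with means of 361 CPM with both factors and 362 CPM with PDGF-BB, and ENG, with 205 and 219 CPM. Neither was in the shorter pericyte list first set out, so the sum alone does not establish pericyte identity. PDGFRB had 134 and 133 CPM. CSPG4 had 68.0 and 68.3 CPM. RGS5 had 19.8 and 17.2 CPM, NOTCH3 9.47 and 7.59, ABCC9 6.17 and 6.05, and KCNJ8 4.35 and 5.22. Of these markers VTN had 0 counts and DES was near 0. The sum of 10 fibroblast markers, mostly COL1A1, was 3224 to 4278 CPM and 3234 to 4313 CPM. Endothelial, leukocyte and epithelial lists stayed at or under 15.3 CPM in sum in both groups, with the endothelial cadherin CDH5 at 0 counts. The neural and glial list was higher, at 29.4 to 47.2 CPM with both factors and 29.5 to 43.9 CPM with PDGF-BB. Most of it came from MBP, with means of 25.3 and 20.8 CPM, and MAP2, with 11.1 and 13.9 CPM.

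Adding eNAMPT to PDGF-BB moved few genes. Of 12111 genes tested, 13 rose and 2 fell at an adjusted p under 0.05, 0.124% of those tested in all, 0.107% higher and 0.0165% lower (edgeR quasi-likelihood test with replicate number as a block). At an unadjusted p under 0.05 there were 657 genes (5.42%), where 606 are expected if no gene differs. The genes that rose included the chemokines CXCL1, CXCL2, CXCL3, CXCL8 and CCL2 and the cytokine genes IL1B and INHBA. Also higher were the NF-kB inhibitor gene NFKBIA, its family member NFKBIZ and the survival gene BIRC3. The rest were the pattern receptor gene PTX3 and the stress-responsive genes IER3 and GADD45A. The genes that fell were PDGFRA and the small nucleolar RNA SNORD13. All 13 that rose were higher in 5 of 5 same-numbered pairs of libraries, against 3.82% of all genes tested (3.52% were lower in 5 of 5), and the groups did not overlap for 10 of them, against 0.322%. The genes were picked by a test on these same libraries, so both counts follow largely from the call and add no support. The median log2 fold change of all genes was 0.00. Without the replicate block 7 genes rose and 0 fell (412 at an unadjusted p under 0.05). These were CXCL8, IER3, CCL2, NFKBIA, CXCL1, NFKBIZ and CXCL2, and the other 8 genes had adjusted p from 0.119 to 1.00. When only the 10 compared libraries were fitted, 25 of 11441 genes passed, 19 higher and 6 lower, with all 15 among them. Without the combined group's replicate 4, 9 genes passed, 8 of them among the 15. Scaling by spike-in counts moved the median of all genes to -0.16 and left CXCL8 and CXCL1 as the 2 that passed, so each change given here is relative to the other genes. All 15 kept their direction in that scaling and in the other 19 alternatives tried.

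**Figure D1:**
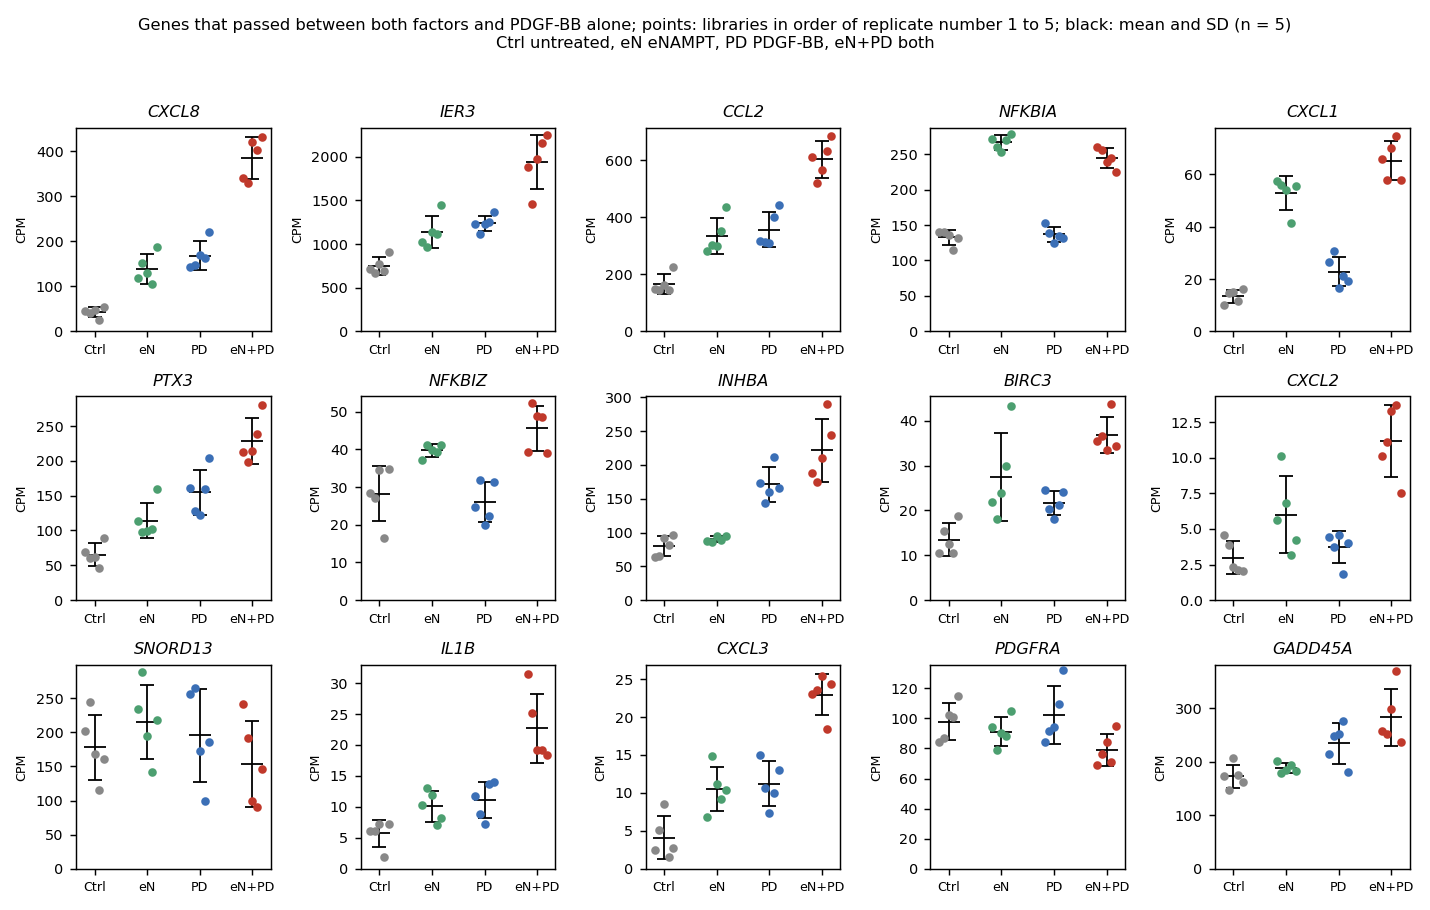
CPM of the 15 genes that passed, on linear axes from 0, in the 20 libraries of the 4 groups (points, in order of replicate number), with the mean and SD of each group (black, n = 5). The red points of both factors lie above the blue points of PDGF-BB without overlap in 10 genes. In PTX3, INHBA, GADD45A, SNORD13 and PDGFRA they overlap.

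The neutrophil chemokines of the CXC family showed the highest fold changes among the genes that passed. These are small secreted proteins that bind the receptors CXCR1 or CXCR2 and draw neutrophils to a site. CXCL8, interleukin 8 (ENSG00000169429, chromosome 4, 73740506 to 73743716, GRCh38), had 142, 148, 169, 162 and 222 CPM in the PDGF-BB libraries 1 to 5. With both factors it had 341, 330, 420, 404 and 431 CPM. The lowest library with both factors lay above the highest with PDGF-BB. CXCL8 rose by 1.21 on the log2 scale (SE 0.07, adjusted p 1.51e-30), from a mean of 169 CPM ± 31.6 to 385 CPM ± 46.4 (SD, n = 5), a ratio of means of 2.29. CXCL1 (ENSG00000163739, chromosome 4, 73869393 to 73871242) had 26.6, 30.7, 16.7, 21.1 and 19.2 CPM with PDGF-BB and 66.0, 57.7, 70.2, 74.6 and 57.8 CPM with both. It rose by 1.52 (SE 0.13, adjusted p 6.18e-18), and again no library overlapped.

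The 250 bases before the start of these genes are shown because the genes moved together and because the best known NF-kB sites of this family lie close to the start. Promoters are from RefSeq (GRCh38.p14) and are written 5′ to 3′ on the gene's strand. Positions are counted from the RefSeq start. For CXCL8, CXCL2, CXCL3, PTX3, PDGFRA, BIRC3, IL1B and INHBA it lies inside the gene span given here from the files' annotation. So does a further RefSeq start of NFKBIZ that is not shown. The stretches before these starts therefore run into the span of their gene. Capitals mark every match, on either strand, to 3 patterns. The strict NF-kB pattern is GGGA, any base, then TTTCC. The loose NF-kB pattern is GGGA, any 4 bases, then CC, and every strict match is also a loose one. The AP-1 pattern is TGANTCA, where N is any base.
CXCL8, chr4:73740319-73740568, plus strand: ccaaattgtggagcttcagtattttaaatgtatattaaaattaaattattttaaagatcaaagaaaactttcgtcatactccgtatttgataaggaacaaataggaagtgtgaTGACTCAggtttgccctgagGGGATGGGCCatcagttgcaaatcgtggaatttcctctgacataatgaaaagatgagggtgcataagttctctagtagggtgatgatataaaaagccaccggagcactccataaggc
CXCL1, chr4:73869143-73869392, plus strand: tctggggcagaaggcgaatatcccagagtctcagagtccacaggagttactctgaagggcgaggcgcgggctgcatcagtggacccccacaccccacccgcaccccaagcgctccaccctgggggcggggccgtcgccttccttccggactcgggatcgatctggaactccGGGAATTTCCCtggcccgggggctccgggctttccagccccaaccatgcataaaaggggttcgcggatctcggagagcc
In CXCL8 the AP-1 match spans bases -137 to -131 from the start and the loose NF-kB match bases -117 to -108. The loose pattern occurs in 22.6% of all promoters, and CXCL8 has no strict match. Its run tggaatttcc, nearer the start, differs from the strict pattern only in the opening base, so the search left it unmarked. In CXCL1 the strict match spans bases -79 to -70, and a match on the other strand is shifted by a single base.

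CXCL2 and CXCL3, close paralogs of CXCL1, rested on fewer counts. CXCL2 (ENSG00000081041, chromosome 4, 74097035 to 74099293) had 4.43, 3.73, 4.59, 1.86 and 4.03 CPM with PDGF-BB, from 6 to 17 counts a library. With both factors it had 10.1, 11.1, 13.3, 13.7 and 7.56 CPM, from 23 to 53 counts, and rose by 1.6 (SE 0.33, adjusted p 0.00434). CXCL3 (ENSG00000163734, chromosome 4, 74036589 to 74038807) had 15.1, 10.6, 7.29, 9.94 and 13.0 CPM with PDGF-BB and 23.0, 23.6, 25.4, 18.4 and 24.3 CPM with both. It rose by 1.02 (SE 0.23, adjusted p 0.0121). In both genes every library with both factors lay above every library with PDGF-BB. The sequences of CXCL1, CXCL2 and CXCL3 are close enough that reads can be split between them in counting, so their separate sizes are uncertain. The promoters of CXCL2 and CXCL3 also hold the strict NF-kB pattern, at bases -78 to -69 and -79 to -70 from the RefSeq start. Both matches fall inside the gene spans given above, while that of CXCL1 lies before its span. In all, 4 of the 6 tested genes of the CXC list passed, with a list median of 1.13, and the other 2 had log2 fold changes of 0.26 and 1.06.

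The call of CXCL2 ended without PDGF-BB replicate 2 (1.5, adjusted p 0.0594) or 4 (1.45, 0.0616), and also without the combined group's replicate 4 (1.34, 0.227). That of CXCL3 ended without PDGF-BB replicate 2 (0.93, adjusted p 0.157) or 3 (0.81, 0.324), without the combined group's replicate 1 (0.99, 0.0833), 4 (1.01, 0.0715) or 5 (1.00, 0.0683), and without the replicate block (1.03, 0.161).

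CCL2, which draws monocytes, was the 1 of 4 tested other chemokine genes that passed (ENSG00000108691, chromosome 17, 34255218 to 34257203). It had 317, 313, 312, 401 and 444 CPM with PDGF-BB and 612, 521, 564, 632 and 686 CPM with both factors. The groups did not overlap, and CCL2 rose by 0.76 (SE 0.05, adjusted p 3.67e-24). The stromal chemokine CXCL12 had a log2 change of -0.08 (SE 0.11, adjusted p 0.962), with means of 49.6 and 46.8 CPM, and CCL5 had -0.07 (SE 0.26, 0.988). Of this list CXCL10, CXCL11, CX3CL1, CCL7, CCL8 and CCL20 had too few counts to be tested.

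**Figure D2:**
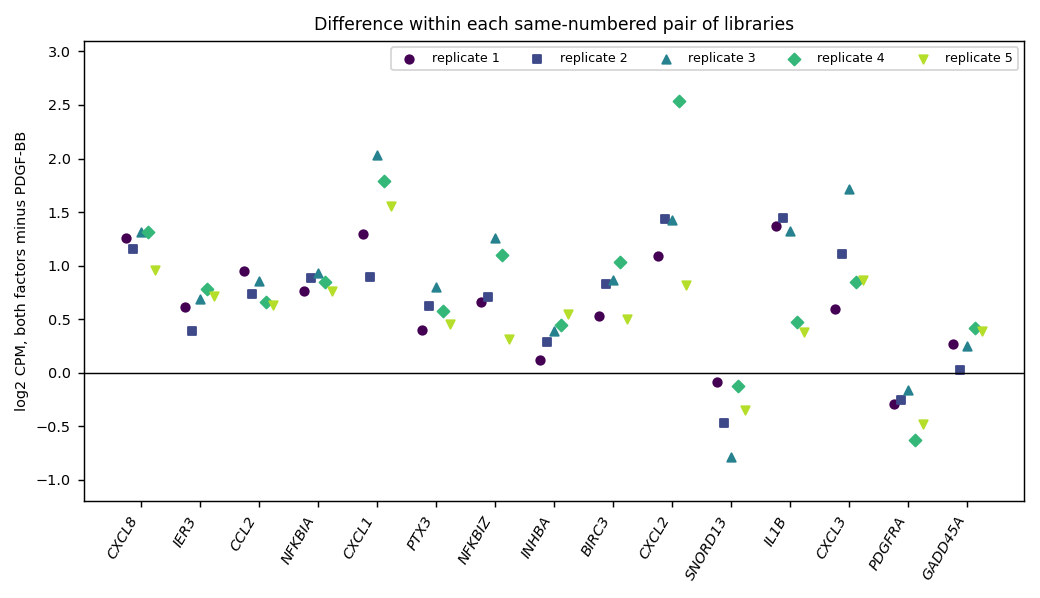
Difference in log2 CPM (prior count 2) between both factors and PDGF-BB within each same-numbered pair of libraries, for the 15 genes that passed. All 5 symbols lie above 0 for the 13 genes that rose and below 0 for SNORD13 and PDGFRA. The spread among pairs is smallest for NFKBIA and widest for CXCL2.

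NFKBIA, the gene of an NF-kB inhibitor, and its family member NFKBIZ formed the second group. NFKBIA encodes IkB-alpha, which holds NF-kB in the cytoplasm (ENSG00000100906, chromosome 14, 35401511 to 35404749, minus strand). It had 153, 139, 125, 135 and 132 CPM with PDGF-BB and 260, 256, 239, 244 and 225 CPM with both. It rose by 0.84 (SE 0.06, adjusted p 6.86e-22), with tight groups that did not overlap. PDGF-BB alone had left NFKBIA near the control level, at 137 CPM ± 10.4 against 132 CPM ± 10.6 (log2 fold change 0.05, adjusted p 0.839). NFKBIZ encodes IkB-zeta, a nuclear member of the family that assists transcription of secondary NF-kB targets (ENSG00000144802, chromosome 3, 101827991 to 101861022). It had 24.8, 31.9, 20.0, 22.4 and 31.3 CPM with PDGF-BB and 39.5, 52.3, 48.8, 48.7 and 39.1 CPM with both. NFKBIZ rose by 0.82 (SE 0.14, adjusted p 3.8e-05). It too was near the control level with PDGF-BB alone, at 26.1 CPM ± 5.34 against 28.3 CPM ± 7.41 (-0.11, adjusted p 0.834).

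The promoters of both genes are shown for the same patterns, with the same marking.
NFKBIA, chr14:35404750-35404999, minus strand: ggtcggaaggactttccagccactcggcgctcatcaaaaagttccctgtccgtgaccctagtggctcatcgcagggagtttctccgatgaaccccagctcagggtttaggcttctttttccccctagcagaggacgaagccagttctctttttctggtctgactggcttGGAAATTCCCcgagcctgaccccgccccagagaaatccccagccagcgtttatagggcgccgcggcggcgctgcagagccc
NFKBIZ, chr3:101827740-101827989, plus strand: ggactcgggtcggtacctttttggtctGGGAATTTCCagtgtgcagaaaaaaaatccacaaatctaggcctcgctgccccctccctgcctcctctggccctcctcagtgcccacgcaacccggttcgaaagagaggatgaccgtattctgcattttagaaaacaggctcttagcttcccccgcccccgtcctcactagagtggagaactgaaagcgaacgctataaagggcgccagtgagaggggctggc
NFKBIA holds the strict pattern read on the other strand, at bases -81 to -72, and NFKBIZ holds it at bases -223 to -214.

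Of the 10 tested genes of the NF-kB inhibitor and feedback list, NFKBIA and NFKBIZ were the 2 that passed. The list median was 0.24 and 8 of the 10 lay above 0, against 6131 of 12111 over all genes. TNFAIP3, the ubiquitin-editing enzyme A20, had 31.6, 23.5, 21.6, 17.7 and 31.0 CPM with PDGF-BB and 39.1, 39.0, 38.0, 35.7 and 29.2 CPM with both. It was higher in 4 of 5 pairs and did not pass (0.55, SE 0.16, adjusted p 0.205). TNIP1, which binds A20, was higher in 5 of 5 pairs and did not pass either (0.27, SE 0.09, adjusted p 0.608).

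None of the 14 tested genes of NF-kB subunits and their kinases passed, with a median of 0.11. NFKB1, the precursor of the p50 subunit, went from 90.3 CPM ± 8.19 to 114 CPM ± 12.2 and was higher in 5 of 5 pairs, with a log2 change of 0.34 (SE 0.09, adjusted p 0.0876). It passed when only the 10 compared libraries were fitted (0.33, adjusted p 0.0251), with DESeq2 (0.34, 0.0369) and without the combined group's replicate 2 (0.39, 0.0388). RELB, a subunit of the alternative pathway, had 0.47 (SE 0.13, adjusted p 0.173), and passed without the same library (0.58, 0.0347).

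BIRC3, an inhibitor of apoptosis and ubiquitin ligase of TNF receptor signalling, was the 1 of 17 tested genes of that list that passed (ENSG00000023445, chromosome 11, 102317450 to 102339403). It had 24.5, 20.4, 18.1, 21.1 and 24.2 CPM with PDGF-BB and 35.6, 36.6, 33.5, 43.8 and 34.5 CPM with both, and the groups did not overlap. It rose by 0.77 (SE 0.16, adjusted p 0.00373). The call ended without the combined group's replicate 4 (0.70, adjusted p 0.0897), without PDGF-BB replicate 5 (0.72, 0.0507) and without the replicate block (0.77, 0.125).

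PTX3, long pentraxin, is a soluble pattern receptor that binds microbes and hyaluronan matrix (ENSG00000163661, chromosome 3, 157436789 to 157443628). It had 161, 128, 122, 159 and 204 CPM with PDGF-BB and 213, 198, 214, 238 and 281 CPM with both. The groups overlapped, since PDGF-BB replicate 5 lay above the combined group's replicate 2, but PTX3 was higher in every pair. It rose by 0.58 (SE 0.07, adjusted p 1.21e-09), a call that rested on the block (without it 0.56, adjusted p 0.119). PTX3 overlaps VEPH1 on the opposite strand, which had 82.5 counts a library against 464 for PTX3. Whether counting used strand is not given in the sources used here. Its promoter has a loose match on both strands, at bases -96 to -87, and no strict one.
PTX3, chr3:157436600-157436849, plus strand: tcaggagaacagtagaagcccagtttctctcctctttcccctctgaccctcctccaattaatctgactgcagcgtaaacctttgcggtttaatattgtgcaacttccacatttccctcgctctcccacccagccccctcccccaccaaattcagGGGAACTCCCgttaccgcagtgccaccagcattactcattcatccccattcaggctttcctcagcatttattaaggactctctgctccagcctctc
Of the other 5 tested genes of the list of pattern recognition and hyaluronan matrix, 0 passed, among them the hyaluronan synthase HAS2 (0.10, SE 0.12).

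RefSeq promoters were matched for 11 of the 15 genes that passed, 13 promoters in all. The strict NF-kB pattern was in 5 of them (NFKBIA, NFKBIZ, CXCL1, CXCL2 and CXCL3), against 0.527% of the 35116 promoters of the same length in the table. Since 3 of the 5 are near-identical paralogs, they are not separate observations. The loose pattern was in 8 of the 13, against 22.6% of all promoters, and the AP-1 pattern in 2, CXCL8 and PDGFRA, against 6.57%. The PDGFRA match, at bases -32 to -26 from the RefSeq start, falls inside its gene span. A match describes letters only and is not a measured binding site.

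Among cytokine genes, IL1B, the precursor of interleukin 1 beta, rose by 1.01 (SE 0.22, adjusted p 0.0121, ENSG00000125538, chromosome 2, 112829751 to 112836903). It had 11.8, 8.90, 7.29, 13.7 and 14.0 CPM with PDGF-BB, from 27 to 45 counts, and 31.4, 25.2, 19.2, 19.2 and 18.4 CPM with both. The groups did not overlap. The call ended without PDGF-BB replicate 1 (0.96, adjusted p 0.0991), 2 (0.88, 0.205) or 3 (0.86, 0.207), without the combined group's replicate 1 (0.90, 0.174), 2 (0.99, 0.0605) or 4 (0.98, 0.0897), and without the block (1.03, 0.125). IL1B was the 1 of 8 tested genes of the inflammatory cytokine list that passed. IL6, an acute phase cytokine, had 2.36, 3.45, 4.05, 2.48 and 4.03 CPM with PDGF-BB and 10.5, 11.1, 9.43, 5.18 and 4.93 CPM with both. Its groups did not overlap, yet with 8 to 41 counts a library it did not pass (1.32, SE 0.39, adjusted p 0.292). LIF, a cytokine of the same receptor family, had 39.6 to 45.9 CPM with PDGF-BB and 46.8 to 74.9 CPM with both. Its groups did not overlap and it did not pass (0.43, SE 0.13, adjusted p 0.292). TNF had 0 counts in all libraries.

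INHBA encodes the chain of activin A, a ligand of the TGF-beta family (ENSG00000122641, chromosome 7, 41667168 to 41705834). It had 173, 144, 160, 212 and 166 CPM with PDGF-BB and 188, 175, 210, 290 and 244 CPM with both, with overlap between groups and a higher value in each pair. It rose by 0.36 (SE 0.07, adjusted p 0.00292). The call ended without PDGF-BB replicate 3 (0.33, adjusted p 0.0738) or 5 (0.32, 0.109), without the combined group's replicate 4 (0.29, 0.240) and without the block (0.37, 0.847). INHBA was the 1 of 18 tested TGF-beta and BMP genes that passed. ID1, a BMP target that blocks helix-loop-helix transcription factors, was lower in 5 of 5 pairs, at 197 CPM ± 37.0 and 164 CPM ± 31.5, and did not pass (-0.26, SE 0.07, adjusted p 0.0876). It passed when only the 10 compared libraries were fitted.

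None of the 6 tested adhesion genes passed, with a median of 0.18. VCAM1, which binds leukocyte integrins, had 47.5, 31.3, 44.0, 42.2 and 40.9 CPM with PDGF-BB and 46.8, 58.2, 58.2, 73.8 and 51.9 CPM with both (ENSG00000162692, chromosome 1, 100719742 to 100739045). It was higher in 4 of 5 pairs and did not pass (0.50, SE 0.13, adjusted p 0.0876). It passed without the combined group's replicate 1, the pair that went the other way (0.62, adjusted p 0.00826), and when only the 10 compared libraries were fitted (0.49, 0.0235). ICAM1 had 0.32 (SE 0.18, adjusted p 0.944).

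Among 23 tested immediate early genes, IER3 and GADD45A passed, and 18 of the 23 lay above 0 with a median of 0.10. Over all genes 6131 of 12111 lay above 0. IER3, an early response gene that modulates survival and is induced by both ERK and NF-kB signals, lies on chromosome 6 (ENSG00000137331, 30743199 to 30744554). It had 1225, 1114, 1226, 1258 and 1363 CPM with PDGF-BB and 1877, 1456, 1975, 2158 and 2244 CPM with both. It rose by 0.64 (SE 0.04, adjusted p 6.07e-26) without overlap. GADD45A, a growth arrest and DNA damage gene (ENSG00000116717, chromosome 1, 67685061 to 67688338), had 214, 248, 252, 277 and 181 CPM with PDGF-BB and 258, 252, 299, 370 and 237 CPM with both. It rose by 0.27 (SE 0.07, adjusted p 0.0462), the least certain of the 15. It passed in 4 of the 10 fits that left out 1 library, those without PDGF-BB replicate 2 and those without the combined group's replicate 1, 2 or 5. In the others its log2 fold change was 0.19 to 0.29 and the adjusted p 0.0582 to 0.737. It also missed the threshold with DESeq2 (0.27, adjusted p 0.318), with limma-voom (0.28, 0.0663), in the other deposited count table (0.27, 0.0669) and without the block.

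EGR1, an ERK-driven transcription factor (ENSG00000120738, chromosome 5, 138465490 to 138469315), had 204, 190, 218, 252 and 172 CPM with PDGF-BB and 245, 225, 273, 283 and 223 CPM with both. It was higher in 5 of 5 pairs and did not pass (0.27, SE 0.07, adjusted p 0.0876). It passed without PDGF-BB replicate 4, without the combined group's replicate 5, and in the fit of 10 libraries alone. JUNB, an AP-1 subunit, had 0.39 (SE 0.11, adjusted p 0.177). FOS, at 5.54 CPM ± 1.21 and 5.25 CPM ± 1.12, had -0.07 (SE 0.41, adjusted p 0.993).

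None of the 19 tested ERK feedback genes passed. Of the 19, 17 lay above 0, with a median of 0.09, where over all genes 6131 of 12111 lay above 0 with a median of 0.00. HBEGF, a ligand of the EGF receptor, had 186, 187, 182, 245 and 254 CPM with PDGF-BB and 198, 217, 251, 285 and 292 CPM with both (0.24, SE 0.07, adjusted p 0.218). HBEGF passed in the fit of the 10 compared libraries alone (0.24, adjusted p 0.0421). The ERK phosphatase genes DUSP6 and DUSP1 had 0.20 (SE 0.10) and 0.28 (SE 0.13), each with an adjusted p of 0.897. In the absence of PDGF-BB the median of the same list with eNAMPT was -0.15, with 0 of 19 passing. These medians were not tested against each other.

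**Figure D3:**
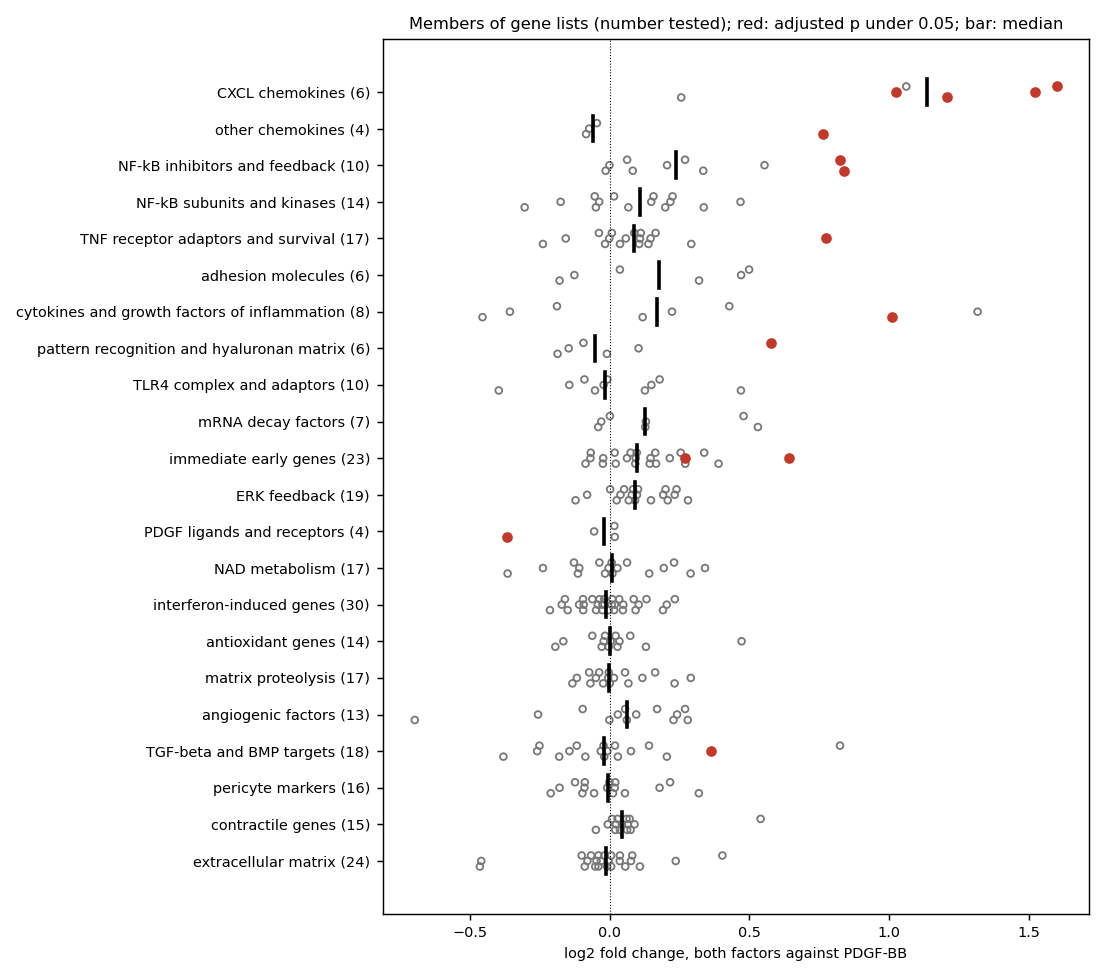
Log2 fold change between both factors and PDGF-BB for each tested member of 22 gene lists (points), with the list median (bar) and, in red, members with an adjusted p under 0.05. The red points are at the right in the chemokine and NF-kB inhibitor lists, while subunits and kinases, TLR4, NAD, interferon and matrix lists have none.

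PDGFRA, the alpha receptor of PDGF (ENSG00000134853, chromosome 4, 54229097 to 54298247), was the 1 protein-coding gene that fell. It had 84.1, 91.3, 94.2, 109 and 132 CPM with PDGF-BB and 68.8, 76.4, 84.2, 70.7 and 94.6 CPM with both, lower in each pair but with overlapping groups. It fell by 0.37 on the log2 scale (SE 0.09, adjusted p 0.0300). It passed in 4 of the 10 fits that left out 1 library, those without PDGF-BB replicate 1 or 3 and those without the combined group's replicate 2 or 3. In the others its log2 fold change was -0.37 to -0.32 and the adjusted p 0.0921 to 0.377. It also missed the threshold with limma-voom (-0.37, adjusted p 0.0588), without a filter on low counts (-0.37, 0.0508) and without the block (-0.37, 0.865). PDGFRA also stands among the 10 fibroblast markers, of which it was the 1 that passed. The main pericyte receptor PDGFRB had 0.02 (SE 0.07), with 134 CPM ± 14.4 and 136 CPM ± 12.6. PDGFA, a ligand chain that PDGF-BB itself raised from 117 to 225 CPM, had 0.02 (SE 0.07) when eNAMPT was added.

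The genes of eNAMPT itself and its proposed receptor did not pass. NAMPT, from which the cells make their own enzyme, had 82.6 CPM ± 8.77 and 84.2 CPM ± 8.13 (0.03, SE 0.09, adjusted p 0.987). The recombinant protein added to the medium leaves no RNA, so this value is no check on the labels. TLR4 had 31.6 CPM ± 4.23 and 30.5 CPM ± 3.71 (-0.05, SE 0.14, adjusted p 0.983). None of the 10 tested genes of the TLR4 complex and its adaptors passed. None passed of the 17 tested genes of NAD metabolism, with a median of 0.01, of the 30 interferon-induced genes, with a median of -0.01, or of the 7 mRNA decay factors, with a median of 0.13. In all, 22 of the 32 lists had no member that passed, among them contractile genes, extracellular matrix, matrix proteolysis, S phase entry, mitosis, cholesterol synthesis and glycolysis. Every one of the 13 genes that rose belonged to at least 1 list, a count with no meaning of its own, since the lists were chosen with earlier results of these data known.

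SNORD13, a small nucleolar RNA that guides a modification of ribosomal RNA (ENSG00000239039), was the other gene that fell. It had 256, 265, 172, 99.4 and 185 CPM with PDGF-BB and 241, 191, 99.8, 91.1 and 146 CPM with both. The groups overlapped widely and followed the replicate numbers, with low values in replicate 4 of each group. Within pairs SNORD13 was lower 5 times of 5, with differences of -0.78 to -0.09 in log2 CPM. SNORD13 fell by 0.35 in the fit (SE 0.07, adjusted p 0.00481). The call ended without PDGF-BB replicate 1 (-0.33, adjusted p 0.0788) or 3 (-0.33, 0.0603), without the combined group's replicate 2 (-0.33, 0.0587) or 3 (-0.26, 0.342), with DESeq2 (-0.35, 0.618) and without the block (-0.35, 1.00). SNORD13 overlaps TTI2 on the opposite strand, with 41.9 counts a library against 610 of its own. Over the 32 tested snoRNA, scaRNA and snRNA genes, a class looked at after SNORD13 was seen, 19 lay below 0 with a median of -0.10, and SNORD13 was the 1 that passed. Over all genes 5980 of 12111 lay below 0.

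The same addition was then set beside eNAMPT given without PDGF-BB, in 10 other libraries that share only the replicate numbers of the block. With eNAMPT alone 21 genes passed, 0.173% of those tested, 18 higher (0.149%) and 3 lower (0.0248%). PDGF-BB alone, which set the state that eNAMPT was added to and shares its libraries with the comparison above, passed 377 genes against control (3.11%). Of the 15 genes that passed on top of PDGF-BB, 8 also passed with eNAMPT alone and in the same direction, 8 of the 21 there. These were CXCL8 (1.71, SE 0.09), CXCL1 (1.98, SE 0.15), CXCL3 (1.39, SE 0.28), CCL2 (1.01, SE 0.06), NFKBIA (1.01, SE 0.07), BIRC3 (1.01, SE 0.17), PTX3 (0.81, SE 0.08) and IER3 (0.60, SE 0.04). Without PDGF-BB, NFKBIZ had 0.51 (SE 0.14, adjusted p 0.149), CXCL2 0.97 (SE 0.36, 0.702), IL1B 0.86 (SE 0.26, 0.338), INHBA 0.20 (SE 0.08, 0.885) and GADD45A 0.13 (SE 0.07, 0.916). PDGFRA had -0.10 (SE 0.09, adjusted p 0.993).

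**Figure D4:**
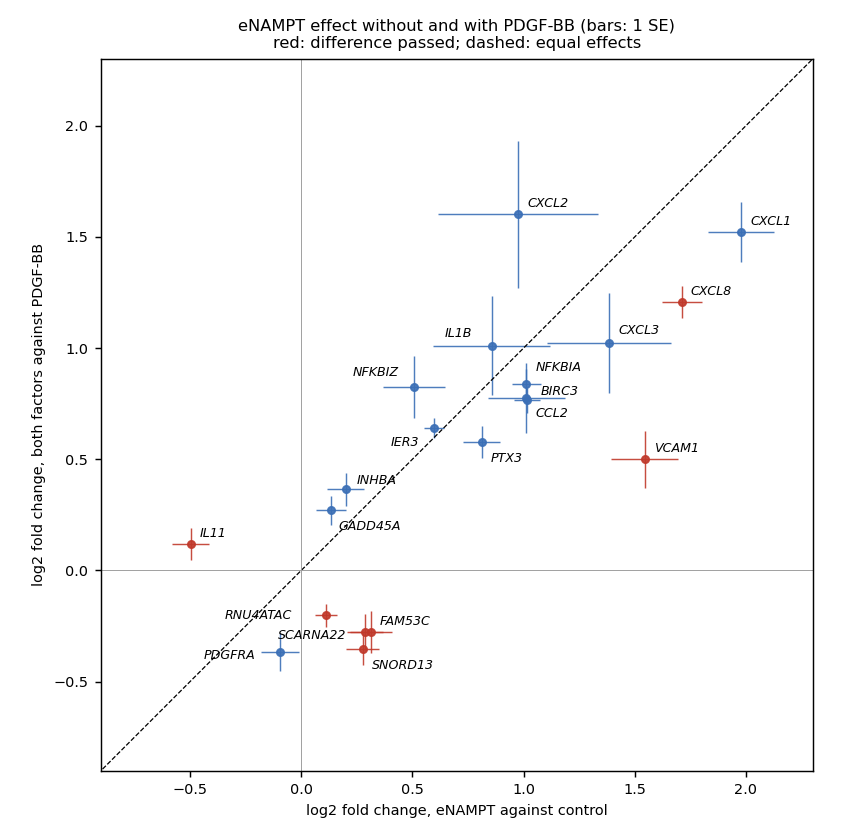
Fitted log2 fold change of eNAMPT without PDGF-BB (x axis) and with it (y axis), with bars of 1 SE, for the 15 genes that passed on top of PDGF-BB and 5 others whose difference passed. Red genes have an adjusted p under 0.05 for the difference between the 2 effects. CXCL8 and VCAM1 lie below the dashed line of equal effects, IL11 above it, and SNORD13, SCARNA22, RNU4ATAC and FAM53C on opposite sides of 0.

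The difference between the 2 effects was tested directly as an interaction. It passed for 7 genes, 0.0578% of those tested, 1 with a higher (0.00826%) and 6 with a lower (0.0495%) log2 effect in the presence of PDGF-BB. For 12 of the 13 genes that rose on top of PDGF-BB the difference did not pass, which does not show that the effects were equal. For NFKBIA it was -0.17 (SE 0.09), for IER3 0.04 (SE 0.06), for CCL2 -0.25 (SE 0.08, adjusted p 0.525) and for CXCL1 -0.46 (SE 0.20, 0.886). On the linear scale the mean gain within pairs was larger with PDGF-BB for some of these genes. IER3 gained 705 CPM ± 227 with PDGF-BB and 387 CPM ± 94.7 without it (SD, n = 5). CCL2 gained 246 CPM ± 32.1 and 168 CPM ± 36.3, while CXCL1 gained 42.4 CPM ± 11.3 and 39.4 CPM ± 6.23, and NFKBIA 108 CPM ± 9.38 and 134 CPM ± 16.7. These linear gains were not tested against each other.

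CXCL8 was the 1 gene that passed both in the comparison with PDGF-BB and in the interaction with a rise. Its levels without PDGF-BB were 45.0, 42.0, 47.6, 24.8 and 53.2 CPM in control and 120, 152, 131, 104 and 188 CPM with eNAMPT. The log2 effect was 1.71 without and 1.21 with PDGF-BB, a difference of -0.50 (SE 0.12, adjusted p 0.0451). The gain in CPM went the other way, at 96.4 CPM ± 25.6 without and 217 CPM ± 28.8 with PDGF-BB, from a start that PDGF-BB had raised from 42.5 to 169 CPM. The interaction passed in 8 of the 20 fits that left out 1 library, those without PDGF-BB replicate 2, the combined group's replicate 4, control replicate 1, 2 or 3, or eNAMPT replicate 1, 3 or 4. In the others the adjusted p reached 0.370.

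Of the 7 genes that passed the interaction, VCAM1 had the largest difference. It had 21.7, 7.75, 12.5, 13.4 and 17.7 CPM in control and 41.7, 40.9, 41.4, 50.4 and 37.5 CPM with eNAMPT alone, without overlap (1.54, SE 0.15, adjusted p 2.77e-15). On top of PDGF-BB, which alone gave 41.2 CPM ± 6.06, the log2 effect was 0.50. The difference was -1.05 (SE 0.20, adjusted p 0.00200) and passed in all 20 fits that left out 1 library. In VCAM1 the gain in CPM was also smaller with PDGF-BB, at 16.6 CPM ± 12.9 against 27.8 CPM ± 7.74.

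IL11, a cytokine gene of the IL6 family, was the 1 gene whose effect was higher with PDGF-BB. It had 122, 87.5, 201, 116 and 131 CPM in control and 88.2, 85.0, 96.7, 83.2 and 103 CPM with eNAMPT alone, lower in 5 of 5 pairs (-0.50, SE 0.08, adjusted p 2.73e-05). With PDGF-BB it had 214, 198, 249, 286 and 211 CPM and with both factors 209, 181, 312, 304 and 264 CPM (0.12, SE 0.07, adjusted p 0.944). The difference was 0.62 (SE 0.11, adjusted p 0.000968). Control replicate 3, at 201 CPM, was the highest control library, and without it the difference was 0.47 (adjusted p 0.0594). IL11 passed in the other 19 fits that left out 1 library.

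**Figure D5:**
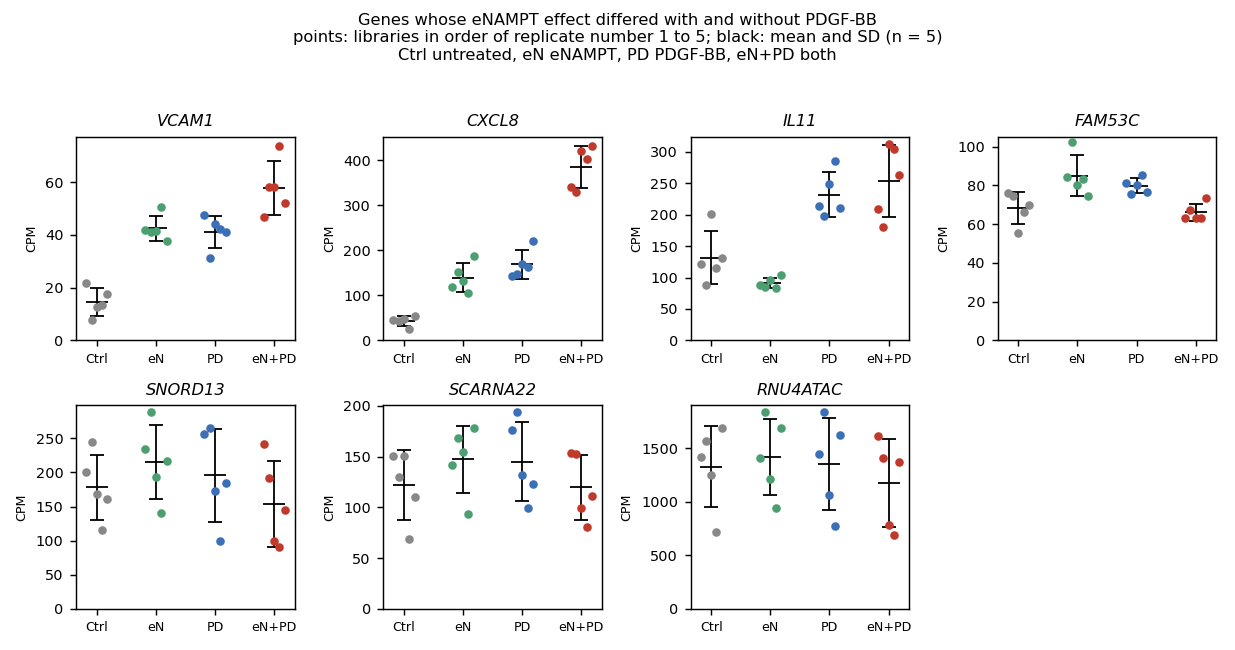
CPM in the 20 libraries (points, in order of replicate number) with group means and SD (black, n = 5), on linear axes from 0, for the 7 genes whose eNAMPT effect differed with and without PDGF-BB. CXCL8 is higher with eNAMPT in both settings without overlap, and VCAM1 is so without PDGF-BB, while with PDGF-BB its groups overlap. IL11 is lower with eNAMPT alone, and the groups of SNORD13, SCARNA22 and RNU4ATAC overlap widely.

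The other 4 genes had fitted effects of opposite sign in the 2 settings. With eNAMPT alone none of these effects passed, and on top of PDGF-BB only that of SNORD13 did. The small RNAs SNORD13, SCARNA22 and RNU4ATAC followed the libraries together, each lowest in replicate 4 of every group. With both factors SCARNA22 had 153, 153, 99.5, 80.8 and 111 CPM, and RNU4ATAC 1615, 1409, 786, 691 and 1372 CPM. The calls of these small RNAs may therefore not be separate observations, and whether they share a source was not tested. SNORD13 was higher with eNAMPT alone in 5 of 5 pairs (0.28, SE 0.07, adjusted p 0.104) and lower on top of PDGF-BB, a difference of -0.63 (SE 0.10, adjusted p 0.00015) that passed in all 20 fits that left out 1 library. SCARNA22, a small Cajal body RNA, had 0.29 (SE 0.08, adjusted p 0.206) without and -0.28 (SE 0.08, 0.292) with PDGF-BB, a difference of -0.56 (SE 0.12, adjusted p 0.0111). Its call ended without PDGF-BB replicate 1 (-0.54, adjusted p 0.0540) or 2 (-0.50, 0.0815), without the combined group's replicate 3 (-0.49, 0.113), and without eNAMPT replicate 3 (-0.54, 0.0531) or 5 (-0.45, 0.205). It lies within NSD2 on the same strand, which had 955 counts a library against 439 for SCARNA22. RNU4ATAC, an RNA of the minor spliceosome, had 0.11 (SE 0.05, adjusted p 0.898) and -0.20 (SE 0.05), a difference of -0.31 (SE 0.07, adjusted p 0.0449). RNU4ATAC was higher in only 2 of 5 pairs with eNAMPT alone, and lower in 4 of 5 on top of PDGF-BB. On top of PDGF-BB its adjusted p was 0.0784, and RNU4ATAC passed there in 5 of the 20 alternatives, among them limma-voom (-0.22, adjusted p 0.0123) and the fit of the 10 compared libraries (-0.21, 0.000602). FAM53C went from 79.9 CPM ± 3.96 with PDGF-BB to 66.1 CPM ± 4.41 with both, without overlap (-0.28, SE 0.09, adjusted p 0.608). With eNAMPT alone FAM53C had 0.31 (SE 0.09, adjusted p 0.278). Its difference was -0.59 (SE 0.13, adjusted p 0.0449). RNU4ATAC and FAM53C passed in 6 and 7 of the 20 fits that left out 1 library, with adjusted p up to 0.432 and 0.262 in the others. RNU4ATAC passed without PDGF-BB replicate 4, the combined group's replicate 1 or 4, control replicate 3 or 5, or eNAMPT replicate 1. FAM53C passed without PDGF-BB replicate 2, the combined group's replicate 5, control replicate 1, 2 or 5, or eNAMPT replicate 1 or 5. FAM53C and RNU4ATAC each overlap a gene on the opposite strand. With DESeq2, VCAM1 was the 1 gene that passed the interaction, and without the replicate block 0 genes passed (406 at an unadjusted p under 0.05), while limma-voom with the block also passed SNORD13, SCARNA22, RNU4ATAC and IL11. With DESeq2, 612 genes had an unadjusted p under 0.05.

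Of genes outside the groups above, those nearest the threshold were the long noncoding gene AC099343.3 (1.83, SE 0.47, adjusted p 0.0965), with 2 to 8 counts a library with PDGF-BB and 14 to 24 with both, and EDN1, which encodes the vasoconstrictor endothelin 1. EDN1 had 69.1, 68.9, 90.2, 137 and 146 CPM with PDGF-BB and 82.4, 103, 114, 166 and 167 CPM with both, higher in each pair (0.33, SE 0.09, adjusted p 0.0991). It passed when only the 10 compared libraries were fitted (0.32, adjusted p 0.0235), without PDGF-BB replicate 4 (0.43, 0.0116) and without the combined group's replicate 1 (0.39, 0.0240). AC099343.3 passed in the same fit of 10 libraries (1.86, adjusted p 0.0330). On the lower side, TADA2B, a subunit of histone acetyltransferase complexes, had 22.4, 29.9, 22.4, 23.0 and 29.5 CPM with PDGF-BB and 15.0, 19.2, 19.5, 16.3 and 12.5 CPM with both. Its groups did not overlap, as for 0.264% of genes in that direction, and it did not pass (-0.61, SE 0.17, adjusted p 0.177). AP4E1, a subunit of an adaptor of vesicle transport, was lower in 5 of 5 pairs (-0.53, SE 0.15, adjusted p 0.198). The processed pseudogene AC090498.1 was lower in 4 of 5 pairs (-0.23, SE 0.06, adjusted p 0.173) and passed in 5 of the 20 alternatives, among them the fit of the 10 compared libraries (-0.24, adjusted p 0.00536). Its level was lowest in replicate 4 of every group, as for the small RNAs above.

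The authors' deposited table of this comparison called 9 genes, all higher, and all 9 were among the 15 named here. Its adjusted p was 0.0990 for BIRC3, 0.894 for PTX3 and 1.00 for INHBA, GADD45A, PDGFRA and SNORD13. No gene called in either analysis had opposite signs in the 2.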

How the data were processed

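Reads were aligned with STAR 2.6.1a to GRCh38 and counted with featureCounts 1.6.4, per the submitters' processing notes, which also name FastQC 0.11.7 and DESeq2 1.18.1. The authors deposited counts per gene for 58676 genes, all matched to GENCODE. The count table that also holds the authors' comparisons was used here, after removal of its 92 ERCC and 7 SIRV spike-in rows. It held 82.6% of the gene counts of the other deposited count table. The authors' deposited p-value and log2 fold change tables came from their own DESeq2 runs.

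Counts were filtered with filterByExpr, scaled by TMM and fitted with edgeR 4.0.16 (quasi-likelihood, 20 libraries, 4 groups, replicate number as a block), with Benjamini-Hochberg adjustment over 12111 genes. All p-values are two-sided. DESeq2 1.42.0 and limma 3.58.1 (voom) were alternatives, in R 4.3.3. The scripts were tested on simulated data.

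The labels do not say what a replicate number shares. The comparison was set out with replicate number as a block, and the numbers were taken as pairs. Deviations from group means of same-numbered PDGF-BB and combined libraries correlated at r = 0.17 to 0.46 over 5687 genes (0.261, 0.268, 0.171, 0.464 and 0.338). The average with other numbers was -0.12 to -0.04. Deviations within a group cancel out, so these averages are tied to the same-number values and add no support. The genes named were those that passed, the 5 nearest on each side, up to 4 per list by p, those passing the interaction and a set of fixed names. The members and lists were chosen with earlier results of these data known. Library totals of 2894878 to 4011066 limit the precision of low genes.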

Additional observations from a re-analysis of the deposited data

Results flagged for a closer look

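In 4 of 80 groups of 5 libraries examined (20 genes in 4 groups), 1 library stood far from the other 4, where chance flags about 1 group in 20. Control replicate 5 had 226 CPM of CCL2, with the other controls at 145 to 161 CPM. eNAMPT replicate 4 had 41.4 CPM of CXCL1, with the others at 54.0 to 57.4 CPM. eNAMPT replicate 5 had 159 CPM of PTX3, with the others at 98.0 to 113 CPM. Control replicate 4 had 1.87 CPM of IL1B, with the others at 6.12 to 7.22 CPM. None of these libraries belongs to the comparison of both factors with PDGF-BB.

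The effect of eNAMPT differed with and without PDGF-BB for 7 genes by the interaction test. The log2 difference, with minus without PDGF-BB, was -1.05 for VCAM1, -0.63 for SNORD13, -0.59 for FAM53C, -0.56 for SCARNA22, -0.50 for CXCL8, -0.31 for RNU4ATAC and 0.62 for IL11. The cause of these differences was not tested.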

How the results depend on the processing

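Without the replicate block, that is without pairing the libraries, 7 genes passed between both factors and PDGF-BB, 9 for eNAMPT alone, 147 for PDGF-BB alone and 0 for the interaction. Scaling by spike-in counts left 2, 9, 70 and 0 (372 at an unadjusted p under 0.05 in edgeR for the last, 406 without the block). The fit of the 10 compared libraries alone gave 25, which included all 15. The interaction passed 1 gene with DESeq2, 4 in the other deposited table and 3 at an adjusted p under 0.01, where PDGF-BB alone passed 221. Apart from leaving out libraries, every other alternative stayed within 1.5 times of the count given. Leaving out 1 library gave 9 to 17 genes for both factors against PDGF-BB (lowest without the combined group's replicate 4), and 3 to 11 for the interaction (lowest without PDGF-BB replicate 1 or the combined group's replicate 3, highest without control replicate 2). With eNAMPT alone and PDGF-BB alone it gave 16 to 25 and 259 to 328. Leaving out control or eNAMPT libraries, and any library for PDGF-BB alone, was chosen after seeing the data. Of the 15 genes, 2 passed in all 20 alternatives, CXCL8 and CXCL1, 7 passed in all 10 fits without 1 library, and 15 kept their direction throughout.

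Genes that did not pass changed sign in some settings, each with a small value. Under spike-in scaling ZFP36L1 had -0.025, TXN -0.0277, IRAK1 -2.66e-05, MT2A -0.0759, CALD1 -0.0727, IL11 -0.038, NAMPT -0.12, PDGFA -0.14 and PDGFRB -0.13, where the median of all genes was -0.16. Without 1 library TLR4 ran from -0.11 to 0.0288, NAMPT from -0.0296 to 0.10, PDGFA from -0.0221 to 0.0729, PDGFRB from -0.0336 to 0.0558 and FOS from -0.22 to 0.0388. The cause was not tested. With 6 to 53 counts of CXCL2 and 8 to 41 of IL6 in the 10 compared libraries, depth limits these genes.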
